A study of Mus musculus with 12 samples.

Results

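This comparison asks what knockdown of SF3a1 changes in the mRNA of macrophages that are responding to LPS. Its members are the 6 of the series' 12 RNAseq libraries that received LPS: 3 with SF3a1 siRNA and 3 with control siRNA. They were chosen by treatment, and earlier results of these data were known. All 6 come from RAW264.7, an established mouse macrophage line whose labelled strain background is BALB/c, grown with siRNA for 24 hours and then with LPS at 20 ng/ml for 4 hours. The control group received a nontargeting siRNA and the other group an siRNA against Sf3a1, so both groups carry a transfection and an LPS exposure, and no library without siRNA was analysed here. The remaining 6 libraries, with the same 2 siRNAs and no LPS, shared the filter, the scaling and the estimate of spread. They also served to check the pairing by replicate number and for the comparison at the end. RAW264.7 is 1 transformed line, the knockdown rests on the siRNA treatment named in the labels, and the labels number the 3 libraries of a group without saying how the cultures were separated, while the study's methods give 3 treatments per group, so p-values measure the spread between these libraries.

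SF3a1 is a subunit of SF3a, a part of the U2 small nuclear ribonucleoprotein that recognises the branch point at the 3' end of introns before they are removed. LPS, the outer membrane lipid of Gram-negative bacteria, is sensed by TLR4 with CD14 and MD-2, and the receptor signals through MyD88 to NF-κB and MAP kinases and through TRIF to the kinases that activate IRF3. The first arm drives inflammatory cytokines, while the second induces interferon-β, which then acts back on the same cells through its receptor and turns on a second wave of interferon-stimulated genes.

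The reads assigned to genes ranged from 13021502 to 41091887 in the control siRNA libraries with LPS and from 17174058 to 36506558 in those with SF3a1 siRNA, with the highest total in replicate 1 of each group. The share of reads outside annotated genes was 19.8, 19.3 and 17.8% in control replicates 1, 2 and 3 and 19.9, 18.2 and 21.4% in SF3a1 siRNA replicates 1, 2 and 3, so the groups overlapped. Levels are given as CPM, the standard unit of a gene's share of the reads on genes, after scaling by edgeR and always in the order of replicates 1, 2 and 3. They compare 1 gene between libraries, and since gene length is not taken into account they do not rank genes against each other. The libraries carried macrophage markers throughout. All 10 listed macrophage markers were above 1 CPM, with Lyz2, the lysozyme of macrophages, at 5967, 6460.3 and 6507 CPM with control siRNA and 6316, 9895 and 6249 CPM with SF3a1 siRNA. Their levels did not all stay alike. Mpeg1 was at 958, 632 and 684 CPM with control siRNA and 286, 304 and 338 CPM with SF3a1 siRNA. Mpeg1 and Fcgr1 were below every control library in every SF3a1 siRNA library. Csf1r, Spi1 and Cd68 were above every control library in every one, and the other markers of the 10 overlapped. The defining markers of T cells (Cd3e, Cd3d, Cd3g), neutrophils (Ly6g, Mpo, Elane), epithelium (Epcam, Krt8) and erythroid cells (Hba-a1) were each below 1 CPM in every library. Single markers of other types passed 1 CPM: S100a8 of neutrophils in 1 library (1.33 CPM), Pdgfrb of fibroblasts in 5 (up to 2.37 CPM), and of the endothelial markers Cdh5 in control replicates 2 and 3 (1.43 and 1.35 CPM) and Pecam1 in 1 library (1.54 CPM). Of 44 listed genes of other cell types, the 1 with the highest CPM was Ighm, an immunoglobulin chain gene, at 19.2, 73.4 and 42.8 CPM with control siRNA and 4.18, 19.7 and 12.1 CPM with SF3a1 siRNA. Lck, a kinase listed for T cells, followed at 13.7, 10.0 and 12.6 CPM with control siRNA and 6.33, 4.78 and 3.13 CPM with SF3a1 siRNA. Both genes were called lower with SF3a1 siRNA. The other B cell markers stayed below 1 CPM, with Pax5 at 0.711, 0.477 and 0.337 CPM with control siRNA and 0 counts with SF3a1 siRNA, and the part of such genes in the results was not tested.

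Sf3a1 (chr11:4160350-4182541, forward strand, mm10) was measured first, since it checks the labels. Its level was 150.02, 194 and 157 CPM with control siRNA and 30.3, 26.7 and 45.0 CPM with SF3a1 siRNA. The groups did not overlap, and 20.4% of the control level remained (log2 fold change -2.30, SE 0.20, edgeR adjusted p = 1.47e-05, n = 3 libraries a group). An exact two-sided permutation test of the 6 values gave p = 0.1, the smallest that 3 libraries against 3 allow. Among the partners of SF3a1, Sf3a2 and Sf3a3, the other subunits of SF3a, had log2 fold changes of 0.33 and -0.013 and were not called. Sf3a2 was called with the replicate block (log2 fold change 0.33).

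Of 14983 genes tested, 5818 were called, meaning an adjusted p of 0.1 or less in edgeR's quasi-likelihood test, which is 38.8%. SF3a1 siRNA raised 2755 genes (18.4%) and lowered 3063 (20.4%). With the replicate number as a block, since libraries with the same number deviated together, 3682 were called higher and 3943 lower. In 2694 genes (18%) all SF3a1 siRNA libraries were above all control libraries, and in 3158 (21.1%) all were below. The median log2 fold change over all genes tested was -0.037. Of the called genes, 2582 (44.4%) changed at least 2-fold, 1510 of them downward and 1072 upward. With more than 1 gene in 3 called, a gene list is described by how far its share of calls and its median stand from these values, and no p-value was computed for a list. In these bulk libraries fewer cells of a kind and less RNA per cell cannot be told apart. The 35 functional lists, which hold 1287 entries of which 1245 were tested, separated into lists with nearly every member lowered, 1 list with most members raised, lists that moved both ways, and lists with few calls.

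**Figure D1:**
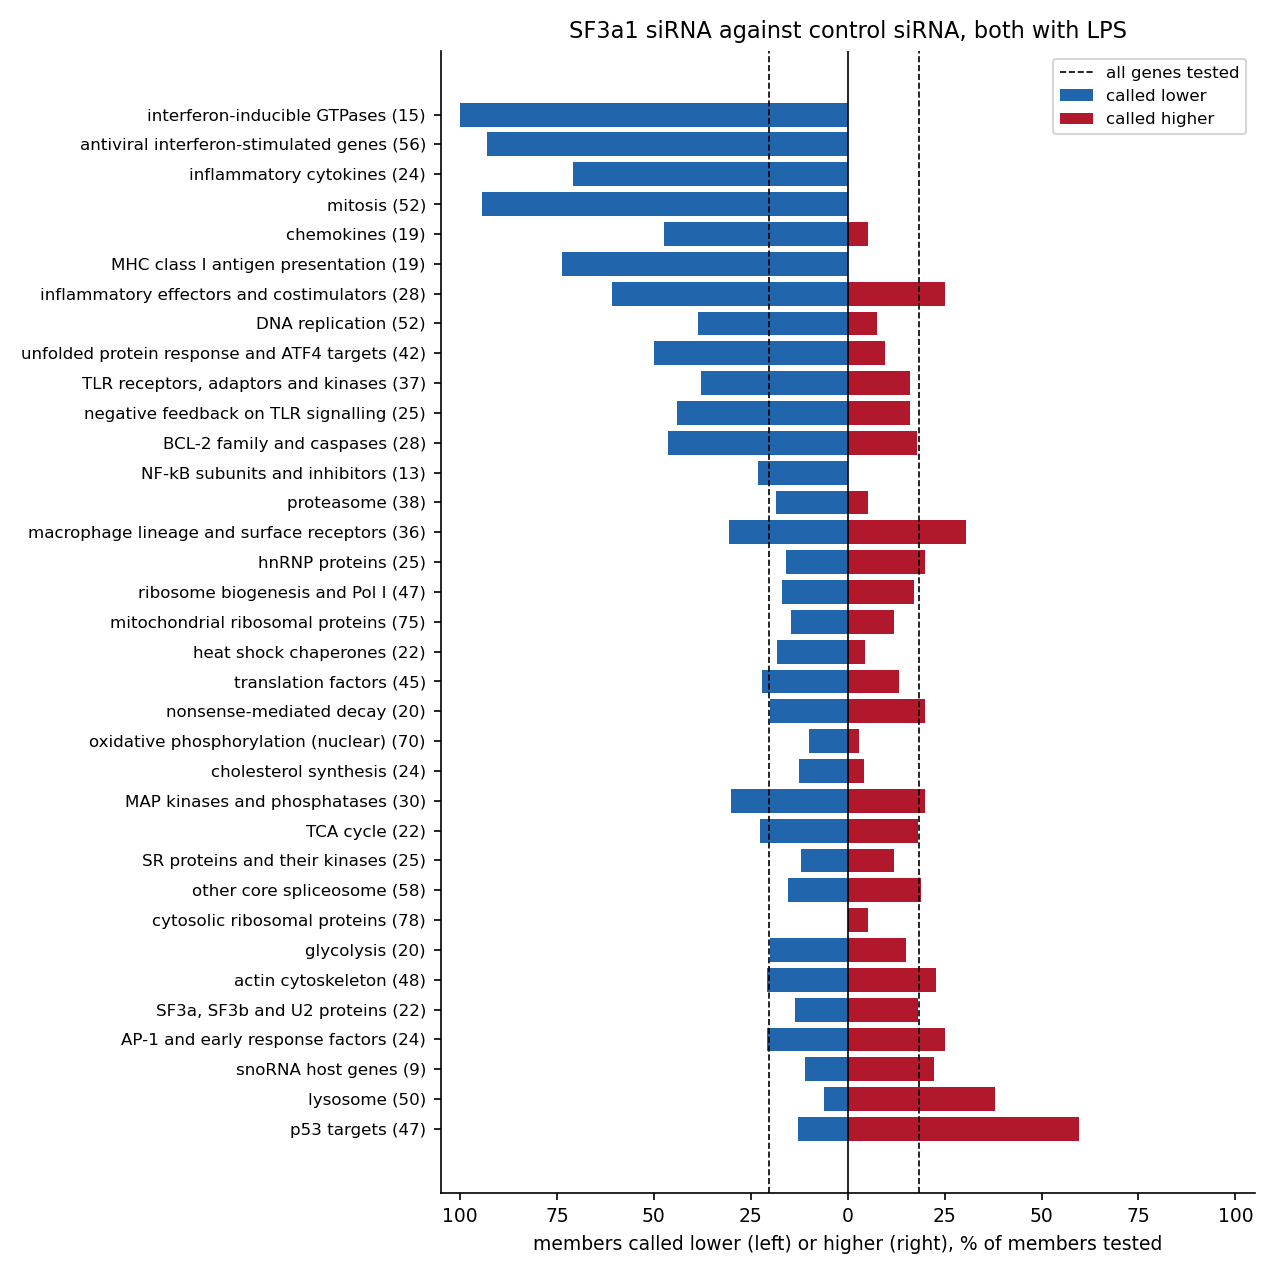
Share of tested members called lower (blue, to the left) and higher (red, to the right) with SF3a1 siRNA in each of 35 gene lists, in percent of the members tested, whose number stands in parentheses; dashed lines mark the shares over all genes tested, 20.4% lower and 18.4% higher. The lists are ordered by their median log2 fold change, with interferon-inducible GTPases (100% lower) at the top and p53 targets (59.6% higher) at the bottom.

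The interferon-inducible GTPases, which coat and disrupt the vacuoles of intracellular pathogens, were lowered most. All 15 tested members of 19 listed fell, each with no overlap between the groups, and their median log2 fold change was -3.17. Gbp2b, a guanylate-binding protein, was at 116, 163 and 289 CPM with control siRNA and 7.81, 12.2 and 24.3 CPM with SF3a1 siRNA. Every SF3a1 siRNA library was below every control library, at 7.79% of the control level (log2 fold change -3.69, SE 0.47, edgeR adjusted p = 0.000137). Iigp1, an immunity-related GTPase of a second family, was at 8.37, 15.3 and 21.4 CPM with control siRNA and 1.15, 0.484 and 1.16 CPM with SF3a1 siRNA (log2 fold change -3.97, SE 0.57, edgeR adjusted p = 0.000272). Tgtp2, of the same family, had the largest fall of the list, from 4.50, 5.56 and 5.50 CPM to 0.303, 0.242 and 0.193 CPM (log2 fold change -4.34, SE 0.46, edgeR adjusted p = 9.89e-05), and its near-identical neighbour Tgtp1 fell by 3.81 on the log2 scale, values that are uncertain because reads shared by the copies were discarded. The member with the highest CPM, Irgm1, a regulator of the other family members, fell least: it was at 727, 924 and 1106 CPM with control siRNA and 418, 423 and 430.3 CPM with SF3a1 siRNA, again without overlap (log2 fold change -1.12, SE 0.20, edgeR adjusted p = 0.00118). Tgtp1 had a log2 fold change of -3.20 without SF3a1 siRNA replicate 1 and -4.84 without SF3a1 siRNA replicate 3.

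Antiviral interferon-stimulated genes were lowered in nearly every case. Of 56 members, 52 fell (92.9%), none rose, and the median log2 fold change was -1.79, with 48 falls of at least 2-fold. Isg20, an exonuclease that degrades viral RNA, was at 174, 113 and 173 CPM with control siRNA and 18.05, 11.2 and 12.03 CPM with SF3a1 siRNA. Each control library was above each SF3a1 siRNA library, and 8.99% of the control level remained (log2 fold change -3.47, SE 0.30, edgeR adjusted p = 1.48e-05). Ifit2, which binds foreign RNA and blocks its translation, was at 364, 755 and 777 CPM with control siRNA and 29.1, 64.4 and 91.6 CPM with SF3a1 siRNA (log2 fold change -3.36, SE 0.38, edgeR adjusted p = 7.03e-05). Ifi44l fell to 9.45% of the control level (log2 fold change -3.40, SE 0.49, edgeR adjusted p = 0.000313). The genes that make up the interferon circuit itself were among those lowered: Ifnb1, the interferon-β gene, fell by 2.67 on the log2 scale (edgeR adjusted p = 0.0186), from 4.92, 27.5 and 26.0 CPM to 0.636, 5.02 and 3.66 CPM, with control replicate 1 just below SF3a1 siRNA replicate 2 and all other libraries apart. Irf7, the factor that amplifies interferon production, had a log2 fold change of -2.44, and the signal transducer Stat2 had -2.20, each past the threshold. The cytosolic RNA sensors Ddx58 and Ifih1 fell, with log2 fold changes of -1.94 and -2.07. Oasl1, the member with the highest CPM, was at 2422, 2432 and 2068 CPM with control siRNA and 1332, 1514 and 1410.1 CPM with SF3a1 siRNA and fell less than the median of its list (log2 fold change -0.70, SE 0.20, edgeR adjusted p = 0.0174). The 4 members not called were Ifitm3 (-0.22), Irf9 (-0.18), Oas2 (0.11) and Trim25 (0.15, all log2 fold changes). Irf7 had a log2 fold change of -3.10 without SF3a1 siRNA replicate 1.

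Promoters of these lists were read for the core of the interferon-stimulated response element, written as GAAA, any 2 bases and GAAA on either strand, in the window from 250 bases before to 50 bases after a start given by RefSeq on GRCm38.p6. It was found in 9 of the 10 GTPase genes with a promoter in the table (90.0%) and in 21 of 44 antiviral genes (47.7%). Among all 9214 tested genes with a promoter the share was 4.03%, and it was 3.44% of all 32851 promoters. Genes called lower held it in 7.49% of cases and genes called higher in 3.13%. The 4 sequences shown are those of Gbp2b (chr3:142594627-142594876, forward strand), Tgtp2 (chr11:49064183-49064432, reverse strand), Irgm1 (chr11:48871391-48871640, reverse strand) and the chemokine gene Cxcl10 (chr5:92348860-92349109, reverse strand), chosen for the falls of Tgtp2, Gbp2b and Cxcl10 and for Irgm1, the member that fell least. Each runs 5' to 3' on the strand of the gene, from 220 bases before the start to 30 bases into the transcript, with matches in capitals.
Gbp2b: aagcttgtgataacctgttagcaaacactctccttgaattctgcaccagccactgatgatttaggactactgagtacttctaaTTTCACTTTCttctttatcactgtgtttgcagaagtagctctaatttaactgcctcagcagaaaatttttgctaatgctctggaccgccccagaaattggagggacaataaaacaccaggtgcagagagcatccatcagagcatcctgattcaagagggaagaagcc
Tgtp2: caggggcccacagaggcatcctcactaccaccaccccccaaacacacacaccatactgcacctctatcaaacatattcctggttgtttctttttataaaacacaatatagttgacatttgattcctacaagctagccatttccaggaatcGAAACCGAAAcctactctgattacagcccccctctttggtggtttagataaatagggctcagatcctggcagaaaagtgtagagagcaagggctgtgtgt
Irgm1: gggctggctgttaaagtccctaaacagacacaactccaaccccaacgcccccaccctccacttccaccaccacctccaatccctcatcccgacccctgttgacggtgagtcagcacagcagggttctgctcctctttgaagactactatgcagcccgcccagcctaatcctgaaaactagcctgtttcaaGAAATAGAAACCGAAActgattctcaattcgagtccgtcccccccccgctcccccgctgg
Cxcl10: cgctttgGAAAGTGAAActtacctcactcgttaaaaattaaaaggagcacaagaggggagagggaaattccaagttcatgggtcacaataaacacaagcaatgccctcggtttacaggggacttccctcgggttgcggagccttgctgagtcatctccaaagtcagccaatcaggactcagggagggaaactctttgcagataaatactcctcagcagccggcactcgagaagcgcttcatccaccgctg
The Irgm1 window held 2 matches that overlap each other, and the Gbp2b match lies on the opposite strand. A match is a description of the letters and not of a bound site.

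Inflammatory cytokines were also lowered as a group, but not all of them. Of 24 tested members of 26, 17 fell (70.8%), none rose and the median log2 fold change was -1.500. Il6, the cytokine of the acute phase, was at 24.6, 10.97 and 27.4 CPM with control siRNA and 1.27, 1.33 and 2.17 CPM with SF3a1 siRNA, and it had 0 counts in all 6 libraries without LPS. Every SF3a1 siRNA library was below every control library, and 7.56% of the control level remained (log2 fold change -3.73, SE 0.42, edgeR adjusted p = 0.000321). Il27, a cytokine of the interleukin-12 family, was at 87.3, 209 and 265 CPM with control siRNA and 10.99, 29.6 and 26.8 CPM with SF3a1 siRNA (log2 fold change -3.07, SE 0.42, edgeR adjusted p = 0.000217). Il1b, the precursor of interleukin-1β, had the highest CPM, at 2389, 2659 and 4202 CPM with control siRNA and 762, 1380.3 and 776 CPM with SF3a1 siRNA, and its groups did not overlap (log2 fold change -1.66, SE 0.33, edgeR adjusted p = 0.00237). Csf1, the growth factor of macrophages, fell by 1.17 on the log2 scale. Tnf, in contrast, was at 671, 1873 and 1804 CPM with control siRNA and 424, 1391 and 898 CPM with SF3a1 siRNA. The groups overlapped, control replicate 1 lying below SF3a1 siRNA replicates 2 and 3, and Tnf was not called (log2 fold change -0.68, SE 0.41, edgeR adjusted p = 0.239). Il10, the anti-inflammatory cytokine, was at 14.7, 4.93 and 3.76 CPM with control siRNA and 8.30, 3.20 and 4.96 CPM with SF3a1 siRNA and was not called (log2 fold change -0.51, SE 0.63, edgeR adjusted p = 0.597). Tnf was called without control replicate 1 or SF3a1 siRNA replicate 2 or with no filter on low counts (log2 fold change -1.13 to -0.67). The cytokine list had 1 raised member without control replicate 1 or with the replicate block.

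Chemokines split by gene. Of 19 tested members of 24, 9 fell (47.4%, against 20.4% of all genes) and 1 rose (5.26%, against 18.4%), with a median log2 fold change of -0.99. Cxcl10, an interferon-responsive attractant of T cells, was at 1175, 2183 and 2350.0 CPM with control siRNA and 56.7, 220.3 and 196 CPM with SF3a1 siRNA, with replicate 1 lowest in both groups and no overlap (log2 fold change -3.60, SE 0.51, edgeR adjusted p = 0.000254). Ccl5, which attracts T cells and monocytes, fell to 18% of the control level, from 1019, 976 and 1703 CPM to 208, 245 and 213 CPM (log2 fold change -2.47, SE 0.31, edgeR adjusted p = 0.000124). Cxcl11, a ligand of the same receptor as Cxcl10, was at 50.8, 119 and 209 CPM with control siRNA and 7.05, 13.5 and 13.8 CPM with SF3a1 siRNA (log2 fold change -3.47, SE 0.62, edgeR adjusted p = 0.0012). The neutrophil attractant Cxcl2 and the monocyte attractant Ccl2 had log2 fold changes of -0.99 and -0.32 and were not called. Ccl9, the member with the highest CPM, was at 3849, 2642 and 4687 CPM with control siRNA and 3921, 3314 and 3437 CPM with SF3a1 siRNA, and its groups overlapped (log2 fold change -0.067, SE 0.22, edgeR adjusted p = 0.857). The member that rose was Cxcl14 (log2 fold change 0.92). Cxcl2 was called without control replicate 1, with limma-voom, with no filter, with only the 6 libraries with LPS or with the replicate block (log2 fold change -1.23 to -0.93).

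The letters GGG, any 2 bases and TTTCC, a form of the NF-κB site, were found in 4 of 16 cytokine promoters and 3 of 12 chemokine promoters (25% of each), against 2.05% of all tested genes with a promoter and 1.63% of all promoters. The share was highest in the NF-κB list, with 4 of 9 (44.4%), although 10 of its 13 members were not called. It was in none of the GTPase or antiviral promoters. The promoter of Il6 is shown because this gene had the largest fall of the cytokine list (chr5:30012894-30013143, forward strand, same window and conventions).
Il6: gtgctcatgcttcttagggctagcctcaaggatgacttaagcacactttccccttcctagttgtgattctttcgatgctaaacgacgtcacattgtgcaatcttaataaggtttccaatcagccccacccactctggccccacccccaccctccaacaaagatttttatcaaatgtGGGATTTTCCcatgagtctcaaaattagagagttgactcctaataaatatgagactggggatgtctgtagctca
Genes called lower and genes called higher held these letters in 2.15% and 1.97% of promoters, both near the share of all tested genes.

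**Figure D2:**
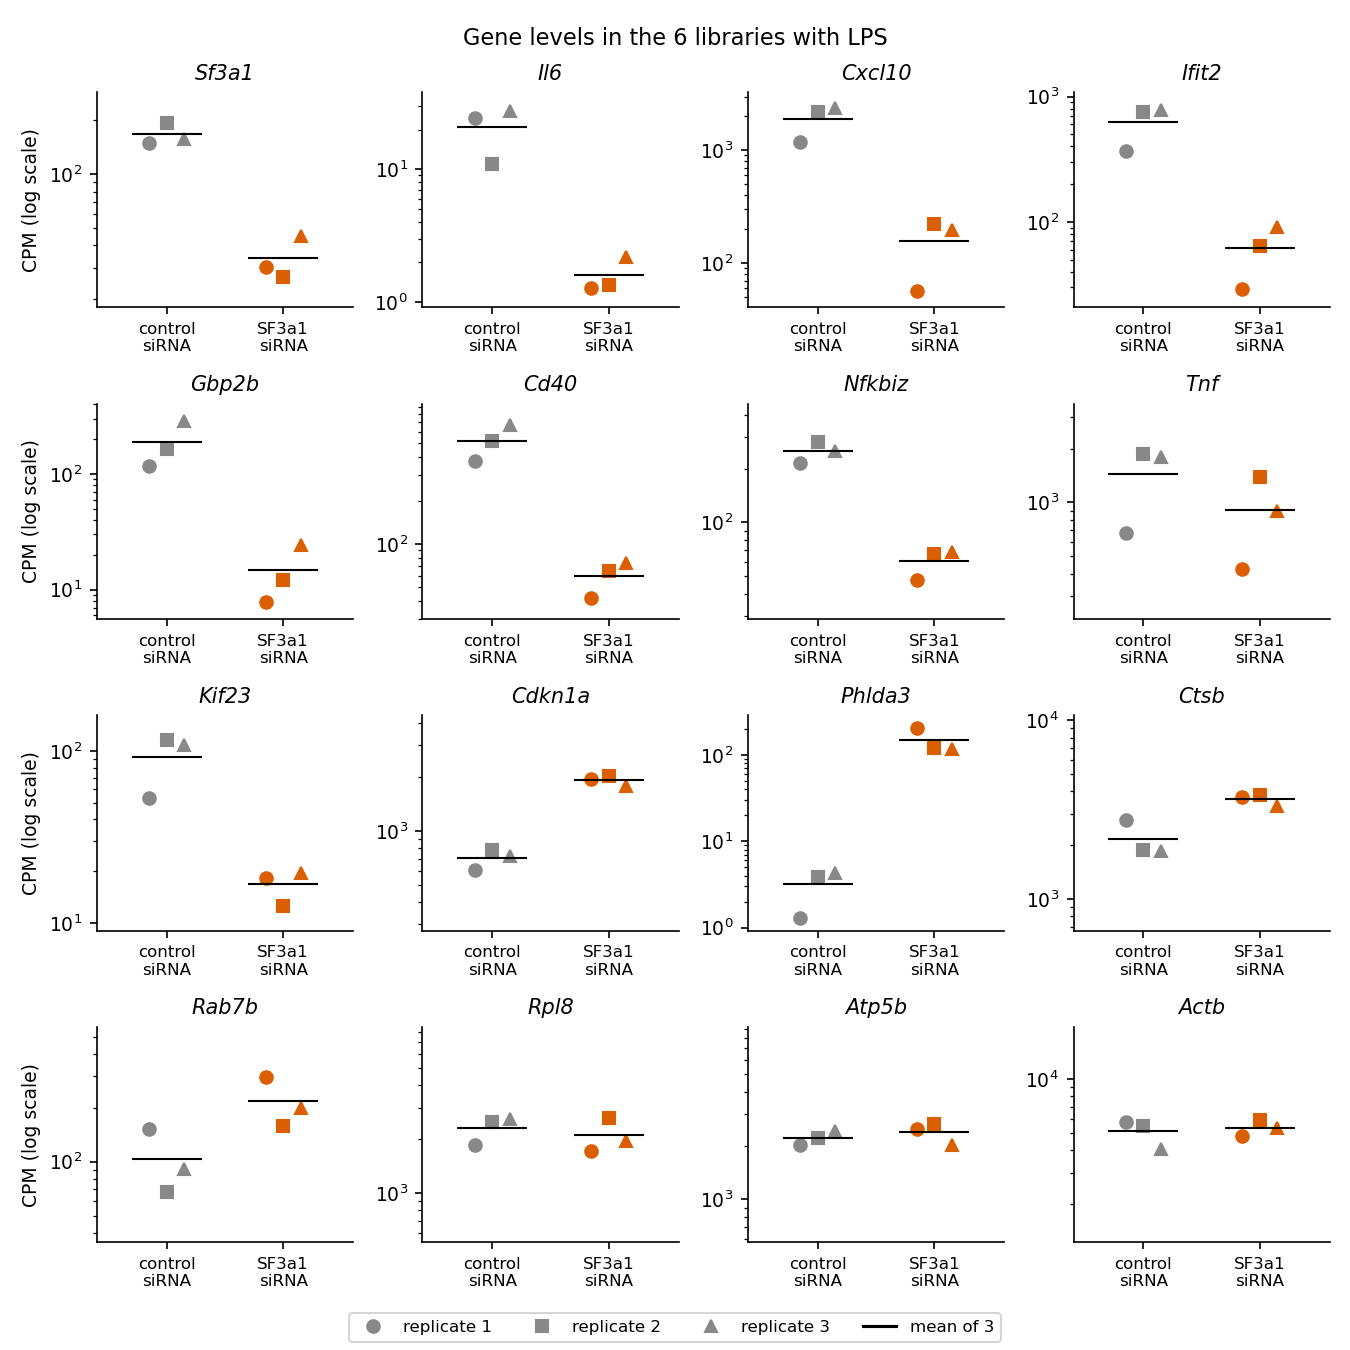
Levels of 16 genes in CPM (log axis) in the 3 control siRNA libraries (grey) and the 3 SF3a1 siRNA libraries (orange) with LPS; circles, squares and triangles are replicates 1, 2 and 3 and the line is their mean. Il6, Cxcl10, Ifit2, Gbp2b, Cd40, Nfkbiz and Kif23 were lower in every SF3a1 siRNA library, Cdkn1a, Phlda3, Ctsb and Rab7b were higher in every one, and Tnf, Rpl8, Atp5b and Actb overlapped.

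Antigen presentation on MHC class I fell without exception of direction among the called members: 14 of 19 were lowered (73.7%), none was raised, and the median log2 fold change was -0.77. Nlrc5, the transcriptional activator of this pathway, was at 193, 211 and 219.6 CPM with control siRNA and 36.8, 17.4 and 32.8 CPM with SF3a1 siRNA (log2 fold change -2.84, SE 0.23, edgeR adjusted p = 1.08e-05). The immunoproteasome subunit Psmb9 was at 88.3, 74.6 and 93.7 CPM with control siRNA and 15.7, 17.4 and 16.4 CPM with SF3a1 siRNA, and the peptide transporter Tap1 at 444, 401 and 403 CPM with control siRNA and 111, 72.3 and 87.1 CPM with SF3a1 siRNA. Neither overlapped between groups, and their log2 fold changes were -2.38 (edgeR adjusted p = 4.53e-06) and -2.21 (edgeR adjusted p = 1.08e-05). The classical heavy chain genes H2-K1 and H2-D1 had log2 fold changes of -0.47 and -0.23 and were not called. H2-M3 (0.039), Calr (-0.28) and Pdia3 (-0.074), of which the last 2 are chaperones shared with protein folding in general, were not called either. Reads on H2 genes are uncertain, since these genes resemble each other. Calr was called with the replicate block (log2 fold change -0.28). H2-K1 was called without SF3a1 siRNA replicate 1 or with the replicate block (log2 fold change -0.69 to -0.48).

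Effector and costimulatory genes of activated macrophages changed in both directions, with 17 of 28 members lowered (60.7%) and 7 raised (25%). Nos2, the inducible nitric oxide synthase, was at 333, 365 and 330.2 CPM with control siRNA and 48.3, 40.2 and 43.5 CPM with SF3a1 siRNA. The 3 libraries of each group lay close together, and 12.8% of the control level remained (log2 fold change -2.96, SE 0.23, edgeR adjusted p = 7.51e-06). Cd40, a receptor for T cell help, fell from 374, 522 and 677 CPM to 41.9, 64.1 and 73.5 CPM (log2 fold change -3.13, SE 0.38, edgeR adjusted p = 0.000103). Acod1, which makes itaconate, had the highest CPM, at 4244, 5202 and 5801 CPM with control siRNA and 1338, 2457 and 2170.0 CPM with SF3a1 siRNA (log2 fold change -1.35, SE 0.38, edgeR adjusted p = 0.0166). The secreted proteins Saa3 and Lcn2 fell, with log2 fold changes of -2.79 and -2.65, and Cd86, a ligand of the T cell receptor CD28, fell by 1.80 while Cd80, the other ligand of CD28, rose by 0.95. Ptgs2, the inducible cyclooxygenase, was at 1159, 908 and 946 CPM with control siRNA and 1205, 1079 and 1382 CPM with SF3a1 siRNA, with overlapping groups (log2 fold change 0.28, SE 0.18, edgeR adjusted p = 0.269). Lcn2 had a log2 fold change of -1.37 without control replicate 1 and -3.27 without SF3a1 siRNA replicate 1. Saa3 had a log2 fold change of -1.88 without control replicate 1 and -3.68 without SF3a1 siRNA replicate 1. Inflammatory effectors and costimulators had 4 raised members without control replicate 2.

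The receptors and signalling proteins that carry the LPS signal moved both ways. Of 37 members of the TLR list, 14 were lowered (37.8%), 6 were raised (16.2%) and the median log2 fold change was -0.32. With the replicate block 21 were lowered. The LPS receptor itself was not called: Tlr4 was at 44.4, 23.2 and 33.1 CPM with control siRNA and 38.2, 14.8 and 23.3 CPM with SF3a1 siRNA (log2 fold change -0.40, SE 0.32, edgeR adjusted p = 0.383), its co-receptor Cd14 at 3677, 2491 and 2134 CPM with control siRNA and 2339, 2017 and 1576 CPM with SF3a1 siRNA (log2 fold change -0.48, SE 0.24, edgeR adjusted p = 0.154), and the adaptor Myd88 at 389.7, 321 and 337 CPM with control siRNA and 368, 249.7 and 242 CPM with SF3a1 siRNA (log2 fold change -0.29, SE 0.18, edgeR adjusted p = 0.252). All 3 overlapped between the groups. Within each pair of libraries with the same replicate number, all 3 were lower with SF3a1 siRNA. With the replicate block, which takes these pairs into account, they were called lower (edgeR adjusted p = 0.0455 for Tlr4, 0.0155 for Cd14 and 0.0514 for Myd88). Tlr3, the sensor of double-stranded RNA, fell from 31.8, 52.2 and 51.1 CPM to 11.1, 9.37 and 14.9 CPM (log2 fold change -1.93, SE 0.27, edgeR adjusted p = 0.000258). Of the kinases, Ikbke fell most (log2 fold change -1.96, SE 0.25, edgeR adjusted p = 0.000148), Ikbkb, the catalytic subunit that releases NF-κB, was at 98.7, 118 and 108 CPM with control siRNA and 53.6, 49.0 and 60.6 CPM with SF3a1 siRNA (log2 fold change -0.99, SE 0.14, edgeR adjusted p = 0.000246), and Irak1 was at 152, 151 and 141 CPM with control siRNA and 121, 81.1 and 109.9 CPM with SF3a1 siRNA (log2 fold change -0.51, SE 0.17, edgeR adjusted p = 0.0354). Traf3 and Map3k7, signal relays of the same pathway, rose by 0.62 and 0.46 on the log2 scale. Cd14 was called without control replicate 3, with no filter or with the replicate block (log2 fold change -0.64 to -0.47). Irak1 was not called without SF3a1 siRNA replicate 2 or with only the 6 libraries (log2 fold change -0.46 to -0.36). Myd88 was called without SF3a1 siRNA replicate 1 or with the replicate block (log2 fold change -0.51 to -0.30). Tlr4 was called without SF3a1 siRNA replicate 1 or with the replicate block (log2 fold change -0.82 to -0.43). TLR receptors, adaptors and kinases had 2 raised members without control replicate 3 or SF3a1 siRNA replicate 1 or with no filter and 3 without control replicate 2 or SF3a1 siRNA replicate 3 or with only the 6 libraries. TLR receptors, adaptors and kinases had 9 lowered members with only the 6 libraries.

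Among NF-κB subunits and inhibitors, 10 of 13 were not called and 3 were lowered (23.1%, near the 20.4% of all genes). Rela and Rel, which form the activating dimers, had log2 fold changes of 0.17 and -0.26, and the inhibitor Nfkbia had -0.14. The clear exception was Nfkbiz, an atypical IκB protein needed for a subset of inflammatory genes that includes Il6, at 216, 280.4 and 252 CPM with control siRNA and 47.5, 66.4 and 68.2 CPM with SF3a1 siRNA (log2 fold change -2.04, SE 0.17, edgeR adjusted p = 1.26e-05). Bcl3, another atypical IκB protein, and Nfkb1 were called lower (log2 fold changes -0.98 and -0.40). MAP kinases and their phosphatases split, with 9 of 30 lowered (30%) and 6 raised (20%), against 20.4% and 18.4% of all genes. Map2k1, which activates ERK, was at 506, 377 and 413 CPM with control siRNA and 197, 134 and 145 CPM with SF3a1 siRNA (log2 fold change -1.45, SE 0.17, edgeR adjusted p = 8.33e-05), and Map3k8, the kinase that links TLR4 to it, was at 25.3, 28.6 and 26.7 CPM with control siRNA and 11.2, 13.2 and 10.2 CPM with SF3a1 siRNA (log2 fold change -1.22, SE 0.21, edgeR adjusted p = 0.00095). Map2k3, which activates p38, rose from 516, 319 and 277 CPM to 1126, 678 and 684 CPM (log2 fold change 1.16, SE 0.25, edgeR adjusted p = 0.00393). Bcl3 was not called without control replicate 1, SF3a1 siRNA replicate 2 or SF3a1 siRNA replicate 3 (log2 fold change -0.99 to -0.45). Nfkb1 was not called without control replicate 3, SF3a1 siRNA replicate 1 or SF3a1 siRNA replicate 2, with no filter or with only the 6 libraries (log2 fold change -0.39 to -0.34). Rela was called without control replicate 1 (log2 fold change 0.42). The NF-κB list had 1 raised member without control replicate 1 or with the replicate block. The NF-κB list had 1 lowered member without SF3a1 siRNA replicate 2. MAP kinases and phosphatases had 3 raised members without control replicate 2, SF3a1 siRNA replicate 2 or SF3a1 siRNA replicate 3.

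Of 24 early response factors, 6 were raised (25%) and 5 lowered (20.8%), near the shares of all genes (18.4% and 20.4%). Egr1 fell from 67.1, 108 and 90.0 CPM to 19.3, 7.80 and 9.48 CPM (log2 fold change -2.84, SE 0.44, edgeR adjusted p = 0.000487), and Atf3, a repressor induced by TLR signals, had a log2 fold change of -2.43. Nr4a2, an orphan nuclear receptor, was at 26.0, 5.64 and 6.56 CPM with control siRNA and 211, 45.3 and 83.5 CPM with SF3a1 siRNA, and Fosl2, a partner of Jun, at 177, 53.2 and 63.8 CPM with control siRNA and 898, 239.8 and 492 CPM with SF3a1 siRNA. In both genes replicate 1 was highest in each group, and they rose by 3.12 and 2.47 on the log2 scale (edgeR adjusted p = 0.00348 and 0.00223). Fos rose by 1.59, and Junb was not called (log2 fold change -0.42). Of 25 genes that dampen TLR signalling, 11 were lowered (44%) and 4 raised (16%), against 20.4% and 18.4% of all genes. Socs3, an inhibitor of cytokine receptor signalling, was at 1260.1, 759 and 741 CPM with control siRNA and 429, 528 and 400.5 CPM with SF3a1 siRNA (log2 fold change -1.02, SE 0.22, edgeR adjusted p = 0.00375). Trim30a, which destabilises the TAB adaptors, fell from 449, 457 and 524 CPM to 156, 103 and 134 CPM (log2 fold change -1.86, SE 0.23, edgeR adjusted p = 0.000107). Rab7b, a small GTPase that sends TLR4 to lysosomes, went the other way, at 153, 68.0 and 90.8 CPM with control siRNA and 296, 158 and 200.1 CPM with SF3a1 siRNA (log2 fold change 1.07, SE 0.27, edgeR adjusted p = 0.0107). Also raised were Ndfip1 (0.39), Zfp36l1 (1.11) and Mertk, a receptor for dying cells that had few counts in all libraries (log2 fold change 2.01). Fosl2 had a log2 fold change of 3.22 without control replicate 1. Junb was called with the replicate block (log2 fold change -0.44). Mertk had a log2 fold change of 1.42 without SF3a1 siRNA replicate 3. Ndfip1 was not called without control replicate 1, control replicate 2 or SF3a1 siRNA replicate 2, with no filter or with only the 6 libraries (log2 fold change 0.32 to 0.44). Nr4a2 had a log2 fold change of 4.21 without control replicate 1 and 2.30 without SF3a1 siRNA replicate 1. Zfp36l1 was not called without control replicate 2, control replicate 3 or SF3a1 siRNA replicate 1 or at an edgeR adjusted p of 0.05 (log2 fold change 0.48 to 1.15). AP-1 and early response factors had 8 lowered members with no filter and 9 without SF3a1 siRNA replicate 1 or with the replicate block. Negative feedback on TLR signalling had 2 raised members without control replicate 2.

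**Figure D3:**
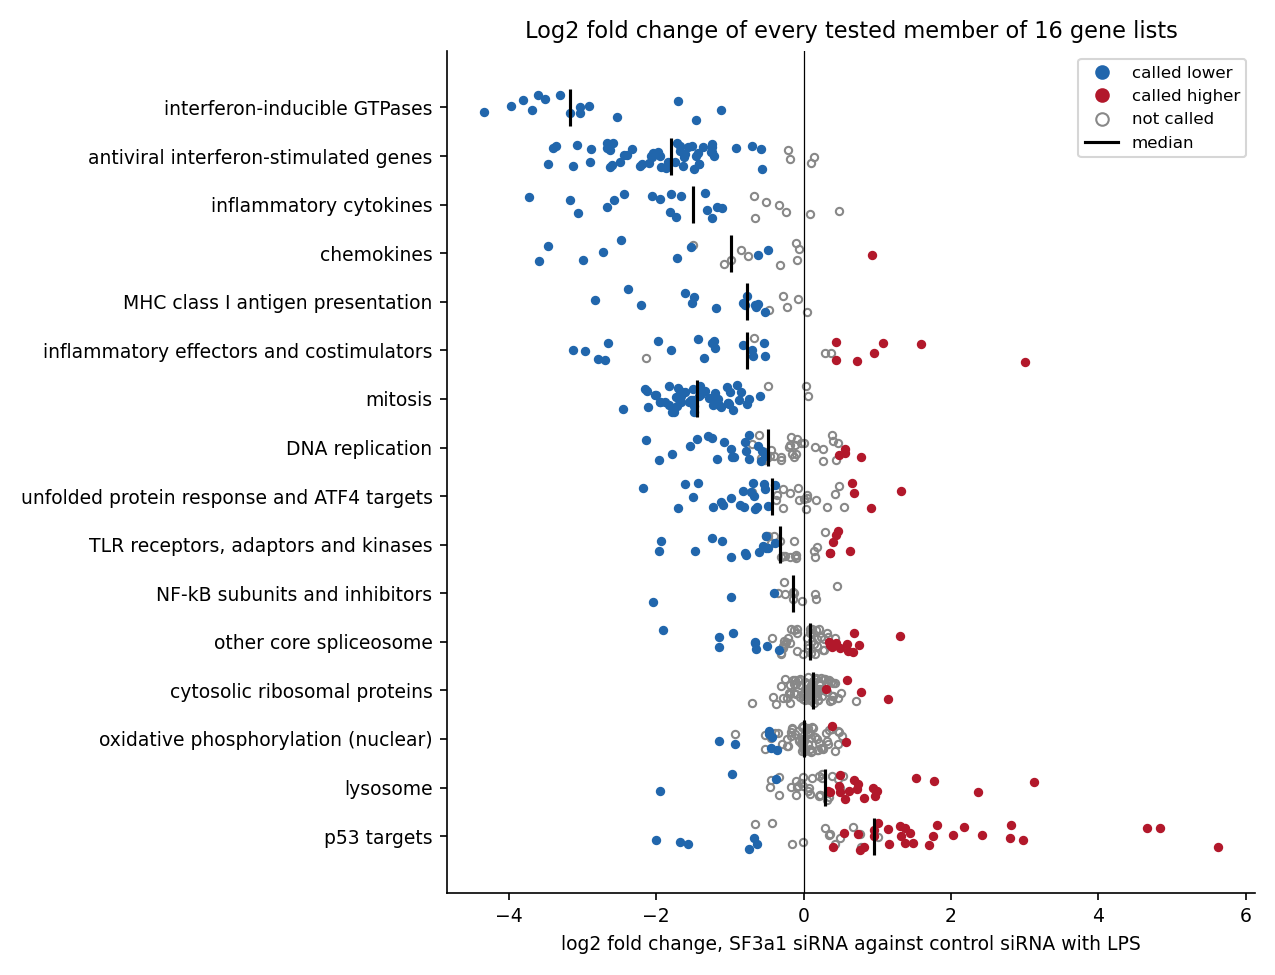
Log2 fold change (SF3a1 siRNA against control siRNA, both with LPS) of every tested member of 16 gene lists, 1 point a gene; filled points were called lower (blue) or higher (red), open points were not called, and the vertical bar is the list's median. The medians run from -3.17 for interferon-inducible GTPases to 0.95 for p53 targets, while the ribosomal and oxidative phosphorylation lists lie around 0.

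Targets of p53, the tumour suppressor that halts the cell cycle or triggers cell death after damage, were the list raised most. Of 47 tested members, 28 rose (59.6%), 6 fell (12.8%), and the median log2 fold change was 0.95. Phlda3, an inhibitor of AKT, was at 1.29, 3.89 and 4.32 CPM with control siRNA and 207, 122 and 117 CPM with SF3a1 siRNA. Its lowest SF3a1 siRNA library was far above its highest control library (log2 fold change 5.62, SE 0.41, edgeR adjusted p = 6.14e-06). Cdkn1a, the cell cycle inhibitor p21, was abundant in both groups, at 607, 785 and 723 CPM with control siRNA and 1943, 2018 and 1779 CPM with SF3a1 siRNA, and rose 2.71-fold (log2 fold change 1.44, SE 0.14, edgeR adjusted p = 2.69e-05). Eda2r, a death receptor, rose from 0.289, 0.636 and 0.729 CPM to 24.4, 9.13 and 10.3 CPM (log2 fold change 4.83, SE 0.55, edgeR adjusted p = 6.9e-05), and Trp53inp1 from 0.105, 0.477 and 0.729 CPM to 13.4, 5.74 and 9.53 CPM (log2 fold change 4.66, SE 0.52, edgeR adjusted p = 6.72e-05). Mdm2, the ligase that limits p53, rose by 2.03 on the log2 scale, and Sesn1, Zmat3 and Ccng1 by 2.42, 2.80 and 1.31. Members that fell included Fas, the death receptor (log2 fold change -1.57), Ckap2, a spindle protein (-2.01), and Pml, which is also interferon-stimulated (-1.67). Gadd45a, which other stresses also induce, was not called (-0.44). Eda2r had a log2 fold change of 4.24 without SF3a1 siRNA replicate 1. Gadd45a was called with the replicate block (log2 fold change -0.46). Trp53inp1 had a log2 fold change of 3.95 without control replicate 1 and 5.45 without control replicate 3.

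In the BCL-2 family and caspases, 5 of 28 members rose (17.9%, near the 18.4% of all genes) and 13 fell (46.4%, against 20.4%), with a median of -0.24. Bbc3, the pro-apoptotic protein PUMA and also a p53 target, was at 12.9, 12.7 and 12.7 CPM with control siRNA and 49.6, 46.1 and 39.5 CPM with SF3a1 siRNA (log2 fold change 1.82, SE 0.17, edgeR adjusted p = 2.55e-05). Bmf, another pro-apoptotic member, rose by 1.34 and Bax by 0.74. Bcl2a1b, a survival gene induced by NF-κB, fell by 1.59 on the log2 scale, a value that is uncertain because its near-identical copies share reads with it. The initiator caspases split, Casp9 rising by 1.06 and Casp8 falling by 0.73 on the log2 scale. BCL-2 family and caspases had 9 raised members with the replicate block.

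Mitosis genes were also lowered in nearly every case. Of 52 members, 49 fell (94.2%), none rose, and the median log2 fold change was -1.45. Kif23, a motor protein of cytokinesis, was at 53, 115 and 108 CPM with control siRNA and 18.3, 12.6 and 19.5 CPM with SF3a1 siRNA (log2 fold change -2.45, SE 0.32, edgeR adjusted p = 0.000163). Ttk, a kinase of the spindle checkpoint, was at 16.5, 23.9 and 28.7 CPM with control siRNA and 5.09, 4.11 and 6.26 CPM with SF3a1 siRNA (log2 fold change -2.15, SE 0.23, edgeR adjusted p = 5.78e-05), and Cdc25c, the phosphatase that starts mitosis, at 18.4, 21.7 and 24.8 CPM with control siRNA and 4.63, 5.26 and 4.91 CPM with SF3a1 siRNA (log2 fold change -2.13, SE 0.23, edgeR adjusted p = 4.93e-05). The groups did not overlap in any of the 3. Birc5, Aurkb, Top2a, Mki67 and Plk1 fell, with log2 fold changes of -2.11, -1.94, -1.88, -1.66 and -1.498. The members not called were the transcription factors Mybl2 (-0.48) and Foxm1 (0.058) and the checkpoint protein Bub3 (0.034, all log2 fold changes). Mybl2 was called without SF3a1 siRNA replicate 1 or with the replicate block (log2 fold change -0.97 to -0.55).

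Promoters of mitosis genes were read for TTTGAA on either strand, the core of the element through which cell cycle genes are repressed in resting cells, a search added after the values were seen. It was in 31 of 43 promoters (72.1%), against 14.6% of all tested genes with a promoter and 17.9% of all promoters, and against 16.7% of DNA replication genes. Windows of the same extent are given for Kif23 (chr9:61946770-61947019, reverse strand) and Ttk (chr9:83834469-83834718, forward strand), the genes with the largest falls of the list, with the letters in capitals on whichever strand they lie.
Kif23: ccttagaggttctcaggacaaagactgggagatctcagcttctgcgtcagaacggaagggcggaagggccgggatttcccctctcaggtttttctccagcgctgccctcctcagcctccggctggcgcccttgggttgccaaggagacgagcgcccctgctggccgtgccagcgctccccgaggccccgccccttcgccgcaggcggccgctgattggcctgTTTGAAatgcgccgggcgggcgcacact
Ttk: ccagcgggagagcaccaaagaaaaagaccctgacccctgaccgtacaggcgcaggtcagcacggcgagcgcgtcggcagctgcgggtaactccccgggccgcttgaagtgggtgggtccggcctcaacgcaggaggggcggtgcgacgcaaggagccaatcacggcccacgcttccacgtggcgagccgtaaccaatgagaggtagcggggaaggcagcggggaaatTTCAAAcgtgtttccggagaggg
In both genes the match lies just after the start of the transcript.

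DNA replication genes were lowered to a lesser extent, with 20 of 52 lowered (38.5%), 4 raised and a median of -0.48. Cdc45, a partner of the replicative helicase, was at 26.9, 32.8 and 29.0 CPM with control siRNA and 8.11, 5.62 and 6.21 CPM with SF3a1 siRNA (log2 fold change -2.14, SE 0.25, edgeR adjusted p = 8.37e-05), and Tk1, thymidine kinase, at 12.2, 29.4 and 25.3 CPM with control siRNA and 6.69, 5.20 and 5.01 CPM with SF3a1 siRNA (log2 fold change -1.97, SE 0.28, edgeR adjusted p = 0.000277). Mcm3, a subunit of that helicase, was at 211, 189 and 132 CPM with control siRNA and 263, 186 and 191 CPM with SF3a1 siRNA, with overlapping groups (log2 fold change 0.27, SE 0.20, edgeR adjusted p = 0.344). The raised members were Gins3 (0.48), Pcna (0.56), Mcm4 (0.56) and E2f2 (0.78). Gins3 was not called without control replicate 3 or SF3a1 siRNA replicate 1 or with no filter (log2 fold change 0.36 to 0.48). Mcm3 was called with the replicate block (log2 fold change 0.27). The DNA replication list had 7 raised members without control replicate 1 and 8 with the replicate block.

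Targets of the unfolded protein response and of ATF4, the transcription factor of amino acid starvation, were lowered in 21 of 42 cases (50%) and raised in 4, with a median of -0.43. Shmt2, a mitochondrial enzyme of serine metabolism, was at 666, 584 and 608 CPM with control siRNA and 265, 201 and 189 CPM with SF3a1 siRNA (log2 fold change -1.504, SE 0.19, edgeR adjusted p = 0.000135). Chac1, which degrades glutathione, was at 41.7, 13.0 and 18.2 CPM with control siRNA and 11.1, 1.99 and 2.74 CPM with SF3a1 siRNA. Replicate 1 was highest in both groups and the groups did not overlap (log2 fold change -2.18, SE 0.59, edgeR adjusted p = 0.0142). Asns and Mthfd2, both targets of ATF4, fell, with log2 fold changes of -0.86 and -1.22. The chaperone Hspa5, the classical marker of the unfolded protein response, was at 2889, 1655 and 1645 CPM with control siRNA and 2284, 1997 and 2052 CPM with SF3a1 siRNA and was not called (log2 fold change 0.033, SE 0.20, edgeR adjusted p = 0.926). The raised members were the stress sensors Eif2ak3 (0.66) and Atf6 (0.68), Edem1 (0.91) and Sesn2 (1.32). Cytosolic heat shock chaperones had few calls: 22.7% were called, against 38.8% of all genes, and 17 of 22 were not. Hsp90ab1 was at 4626, 3667 and 3429 CPM with control siRNA and 4370.4, 4342 and 4116 CPM with SF3a1 siRNA (log2 fold change 0.13, SE 0.13, edgeR adjusted p = 0.51). Hsph1 was the 1 member that rose (0.85), and the 4 that fell were Chordc1 (-1.19), Hsf1 (-0.88), Dnajc2 (-0.73) and Stip1 (-0.34). Atf6 was not called without SF3a1 siRNA replicate 1 (log2 fold change 0.36). Chac1 had a log2 fold change of -1.53 without control replicate 1 and -3.36 without SF3a1 siRNA replicate 1. Eif2ak3 was not called without control replicate 2, control replicate 3, SF3a1 siRNA replicate 1 or SF3a1 siRNA replicate 3, with only the 6 libraries or at an edgeR adjusted p of 0.05 (log2 fold change 0.44 to 0.71). Hsf1 was not called without control replicate 1, SF3a1 siRNA replicate 2 or SF3a1 siRNA replicate 3 (log2 fold change -0.80 to -0.60). Hspa5 was called without control replicate 1 (log2 fold change 0.36). Stip1 was not called without control replicate 2, control replicate 3, SF3a1 siRNA replicate 1 or SF3a1 siRNA replicate 3, with no filter or with only the 6 libraries (log2 fold change -0.33 to -0.28). Unfolded protein response and ATF4 targets had 2 raised members without SF3a1 siRNA replicate 1, 7 with the replicate block and 10 without control replicate 1. Heat shock chaperones had 2 raised members without SF3a1 siRNA replicate 2, with DESeq2 or with limma-voom, 3 with no filter, 4 with the replicate block and 7 without control replicate 1. Heat shock chaperones had 2 lowered members without SF3a1 siRNA replicate 3.

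Lysosome genes were raised more often than lowered, 19 of 50 (38%) against 3, with a median of 0.29. Ctsb, the protease cathepsin B and the member with the highest CPM, was at 2772, 1885 and 1863 CPM with control siRNA and 3719.6, 3813 and 3329 CPM with SF3a1 siRNA, without overlap (log2 fold change 0.74, SE 0.17, edgeR adjusted p = 0.00508). Atp6v0d2, a subunit of the proton pump, was at 22.4, 3.10 and 7.69 CPM with control siRNA and 166, 34.1 and 98.2 CPM with SF3a1 siRNA. Replicate 1 was highest in both groups, and the SE was wide (log2 fold change 3.12, SE 0.79, edgeR adjusted p = 0.00964). Tfeb and Mitf, transcription factors of lysosomal genes, rose by 1.77 and 0.996 on the log2 scale. Among the lowered members were Ctsc (-1.95), a protease that activates granule enzymes, and Atp6v1c1 (-0.97). Macrophage lineage genes split evenly, 11 raised and 11 lowered of 36 (30.6% each, against 18.4% and 20.4% of all genes). The receptor Csf1r and the lineage factor Spi1 rose by 0.69 and 0.61 on the log2 scale, and Csf1r was at 1523, 1460.4 and 1291 CPM with control siRNA and 2487, 1972 and 2414 CPM with SF3a1 siRNA. Fcgr1, a high-affinity receptor for antibodies that interferon induces, fell from 565, 382 and 421 CPM to 52.5, 39.8 and 56.1 CPM (log2 fold change -3.20, SE 0.23, edgeR adjusted p = 6.14e-06), and Irf8, a lineage factor also induced by interferon, from 107, 227 and 174 CPM to 22.0, 47.8 and 36.3 CPM (log2 fold change -2.26, SE 0.33, edgeR adjusted p = 0.000309). Of 48 actin cytoskeleton genes, 11 were raised (22.9%) and 10 lowered (20.8%), near the shares of all genes, with Actn1, an actin crosslinker, rising to 819.7, 604 and 833 CPM from 392, 312 and 283 CPM (log2 fold change 1.19, SE 0.16, edgeR adjusted p = 0.000185) and Actb itself at 5781, 5437 and 4061 CPM with control siRNA and 4806, 5884 and 5338 CPM with SF3a1 siRNA (log2 fold change 0.069, SE 0.17, edgeR adjusted p = 0.804). Atp6v0d2 had a log2 fold change of 4.18 without control replicate 1 and 2.53 without SF3a1 siRNA replicate 1. Ctsc had a log2 fold change of -1.16 without control replicate 1. The lysosome list had 5 lowered members with the replicate block. Macrophage lineage and surface receptors had 17 lowered members with the replicate block. Actin cytoskeleton had 5 raised members without control replicate 2 and 7 with no filter or with only the 6 libraries.

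The genes of the spliceosome, of which SF3a is a part, showed no common direction. Among SF3a, SF3b and U2 proteins, 4 of 22 rose (18.2%) and 3 fell (13.6%), Sf3a1 being 1 of the latter. Sf3b1, which contacts the branch point, was at 347, 399 and 356 CPM with control siRNA and 572, 501 and 631 CPM with SF3a1 siRNA (log2 fold change 0.63, SE 0.13, edgeR adjusted p = 0.00314), and Sf3b4 at 160.1, 131 and 114 CPM with control siRNA and 249, 241 and 215 CPM with SF3a1 siRNA (log2 fold change 0.80, SE 0.14, edgeR adjusted p = 0.00123). Ddx46 and U2af1 rose by 0.73 and 0.42, and U2surp and Sf3b2 fell, with log2 fold changes of -0.77 and -0.46. Of 58 other core spliceosome genes, 11 rose (19%) and 9 fell (15.5%), near the shares of all genes, and 44 had a log2 fold change within 0.5 of 0 (75.9%, against 54.8% of all genes). Lsm2, of the ring around U6 RNA, was at 39.7, 83.2 and 91.9 CPM with control siRNA and 14.4, 21.3 and 21.8 CPM with SF3a1 siRNA (log2 fold change -1.90, SE 0.31, edgeR adjusted p = 0.00072), and Prpf31, of the U4/U6 particle, at 263, 302 and 265 CPM with control siRNA and 136.6, 124 and 114 CPM with SF3a1 siRNA (log2 fold change -1.15, SE 0.14, edgeR adjusted p = 8.81e-05). Txnl4a, of the U5 particle, rose from 51.3, 67.6 and 67.4 CPM to 154, 172 and 136.8 CPM (log2 fold change 1.31, SE 0.15, edgeR adjusted p = 6.87e-05). SR proteins and their kinases (3 raised and 3 lowered of 25, 12% each) and hnRNP proteins (5 raised, 20%, and 4 lowered, 16%, of 25) showed no common direction. The kinase Srpk1 fell by 1.07 and the kinase Clk4 rose by 0.96, while Hnrnpul1 and Hnrnpm fell, with log2 fold changes of -0.97 and -0.76. In nonsense-mediated decay, which removes mRNAs with premature stop codons, 4 of 20 rose and 4 fell (20% each), near the shares of all genes. Dhx34 rose from 53.6, 71.1 and 64.2 CPM to 147.8, 89.9 and 107 CPM (log2 fold change 0.87, SE 0.19, edgeR adjusted p = 0.00434). Upf3b was at 20.3, 26.9 and 26.98 CPM with control siRNA and 7.51, 5.86 and 7.80 CPM with SF3a1 siRNA (log2 fold change -1.80, SE 0.20, edgeR adjusted p = 5.78e-05) and Nbas at 52.7, 41.3 and 33.4 CPM with control siRNA and 18.9, 8.10 and 15.02 CPM with SF3a1 siRNA (log2 fold change -1.59, SE 0.27, edgeR adjusted p = 0.000782). Among the few noncoding hosts of small nucleolar RNAs, which that pathway degrades, Gas5 was at 88.5, 145 and 204 CPM with control siRNA and 129, 254 and 209 CPM with SF3a1 siRNA (log2 fold change 0.44, SE 0.34, edgeR adjusted p = 0.381). Of 9 tested members of this list, 2 rose (22.2%) and 1 fell (11.1%), against 18.4% and 20.4% of all genes. Gas5 was called with the replicate block (log2 fold change 0.47). Sf3b2 was not called without SF3a1 siRNA replicate 2, with no filter or with only the 6 libraries (log2 fold change -0.45 to -0.34). U2af1 was not called without control replicate 2, control replicate 3 or SF3a1 siRNA replicate 2, with limma-voom, with no filter, with only the 6 libraries or at an edgeR adjusted p of 0.05 (log2 fold change 0.24 to 0.48). Other core spliceosome had 7 raised members with no filter. SR proteins and their kinases had 5 raised members without SF3a1 siRNA replicate 1 or with the replicate block. SR proteins and their kinases had 6 lowered members with the replicate block. The hnRNP list had 2 raised members with no filter. The hnRNP list had 7 lowered members without control replicate 1 and 10 with the replicate block. Nonsense-mediated decay had 2 raised members with no filter. The snoRNA host list had 1 raised member without control replicate 1, control replicate 2 or SF3a1 siRNA replicate 2. The snoRNA host list had 0 lowered members without control replicate 2, control replicate 3, SF3a1 siRNA replicate 1 or SF3a1 siRNA replicate 3 or with limma-voom, 2 without control replicate 1 and 3 with the replicate block.

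Several classes of abundant housekeeping genes were spared, in the sense that few members were called and most lay close to 0. Cytosolic ribosomal proteins had the smallest share of calls of the 35 lists: 4 of 78 rose (5.13%), none fell, and 72 had a log2 fold change within 0.5 of 0, against 54.8% of all genes tested. Rpl8, with the highest CPM, was at 1854, 2499 and 2586 CPM with control siRNA and 1719, 2626 and 1965 CPM with SF3a1 siRNA (log2 fold change -0.14, SE 0.21, edgeR adjusted p = 0.678). The members that rose were Rpl36a (1.14), Fau (0.78), Rpl27 (0.59) and Rpl4 (0.31). The median SE of this list, 0.25, was close to that of all genes (0.25), as was that of the oxidative phosphorylation list (0.26). It was above that of glycolysis (0.16), translation factors (0.17), proteasome (0.17) and other core spliceosome genes (0.15), and below that of cholesterol synthesis (0.30). The part of this spread in the small share of calls was not tested. Nuclear genes of oxidative phosphorylation were called in 9 of 70 cases (12.9%, against 38.8% of all genes), 2 upward and 7 downward, with 63 within 0.5 of 0. Atp5b, of the ATP synthase, was at 2017, 2211 and 2413 CPM with control siRNA and 2466, 2649 and 2003 CPM with SF3a1 siRNA (log2 fold change 0.10, SE 0.14, edgeR adjusted p = 0.635), while Ndufs1, of complex I, was the largest exception, at 135, 161 and 188 CPM with control siRNA and 69.5, 72.8 and 76.2 CPM with SF3a1 siRNA (log2 fold change -1.15, SE 0.15, edgeR adjusted p = 0.000141). Rpl27 was not called without control replicate 1, control replicate 2, control replicate 3 or SF3a1 siRNA replicate 2 or at an edgeR adjusted p of 0.05 (log2 fold change 0.29 to 0.63). Rpl4 was not called without control replicate 1, control replicate 2, SF3a1 siRNA replicate 1 or SF3a1 siRNA replicate 2, with library totals alone, with no filter, with only the 6 libraries or at an edgeR adjusted p of 0.05 (log2 fold change 0.26 to 0.36). Cytosolic ribosomal proteins had 2 raised members without control replicate 2 or SF3a1 siRNA replicate 2, 8 without control replicate 3 and 15 with the replicate block. Cytosolic ribosomal proteins had 1 lowered member without control replicate 1, control replicate 2 or SF3a1 siRNA replicate 2 or with no filter and 4 with the replicate block. Oxidative phosphorylation had 1 raised member without control replicate 1 or control replicate 2 or with only the 6 libraries, 4 with DESeq2 or with no filter, 7 without control replicate 3 and 8 with the replicate block. Oxidative phosphorylation had 2 lowered members with only the 6 libraries, 3 without control replicate 3 or SF3a1 siRNA replicate 3, 4 without SF3a1 siRNA replicate 1, 11 without SF3a1 siRNA replicate 2 and 12 without control replicate 1 or with the replicate block.

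Cholesterol synthesis enzymes were called in 4 of 24 cases (16.7%, against 38.8% of all genes), with Msmo1 raised (0.81) and Mvk (-1.09), Fdps (-0.61) and Pmvk (-0.56) lowered. Glycolysis genes were raised in 3 (15%) and lowered in 4 (20%) of 20 cases, near the shares of all genes (18.4% and 20.4%). The lowered ones were the phosphofructokinase genes Pfkp (-0.82) and Pfkl (-0.74), Pfkfb3, which makes their activator (-1.23), and Pdk1 (-0.41), while Pkm, pyruvate kinase, was at 4873, 4726 and 4289 CPM with control siRNA and 5440.2, 6101 and 5129 CPM with SF3a1 siRNA (log2 fold change 0.26, SE 0.13, edgeR adjusted p = 0.134). In the TCA cycle 4 of 22 rose (18.2%) and 5 fell (22.7%), also near the shares of all genes. Among those that fell was Dlat, the acyltransferase of the pyruvate dehydrogenase complex (-1.07). Proteasome genes were lowered in 7 of 38 cases (18.4%), near the 20.4% of all genes. Of these, 3 (Psmb8, Psmb9 and Psmb10) are the interferon-induced immunoproteasome subunits. Psme1, of the interferon-induced activator, fell by 1.35 on the log2 scale. Mitochondrial ribosomal proteins (9 raised, 12%, and 11 lowered, 14.7%, of 75), translation factors (6 raised, 13.3%, and 10 lowered, 22.2%, of 45) and ribosome biogenesis genes (8 raised and 8 lowered of 47, 17% each) had medians of -0.018, 0.0022 and -0.051. The largest of these changes were in Mrps6, which rose by 1.58, and Mrps10, which fell by 1.27 on the log2 scale. A gene that misses the threshold was not shown to be unchanged. Fdps was not called without control replicate 3 or SF3a1 siRNA replicate 3 (log2 fold change -0.51 to -0.50). Msmo1 was not called without control replicate 2, control replicate 3 or SF3a1 siRNA replicate 1 (log2 fold change 0.60 to 0.71). Pdk1 was not called without control replicate 2, control replicate 3, SF3a1 siRNA replicate 1 or SF3a1 siRNA replicate 2, with no filter, with only the 6 libraries or at an edgeR adjusted p of 0.05 (log2 fold change -0.41 to -0.33). Pkm was called with DESeq2 or with the replicate block (log2 fold change 0.26 to 0.28). Pmvk was not called without control replicate 1, control replicate 3, SF3a1 siRNA replicate 2 or SF3a1 siRNA replicate 3, with RLE scaling, with DESeq2, with only the 6 libraries or at an edgeR adjusted p of 0.05 (log2 fold change -0.58 to -0.41). The cholesterol list had 0 raised members without control replicate 2, control replicate 3 or SF3a1 siRNA replicate 1, 2 with no filter and 4 without control replicate 1 or with the replicate block. The cholesterol list had 1 lowered member without SF3a1 siRNA replicate 3. The glycolysis list had 0 raised members without control replicate 2 or SF3a1 siRNA replicate 1, 1 without control replicate 3 or with no filter, 6 with the replicate block and 7 without control replicate 1. The proteasome list had 1 raised member with no filter, 4 without SF3a1 siRNA replicate 3 or with DESeq2 and 6 with the replicate block. The proteasome list had 13 lowered members with the replicate block. Mitochondrial ribosomal proteins had 14 raised members with the replicate block. Mitochondrial ribosomal proteins had 4 lowered members without control replicate 3 or with only the 6 libraries, 5 without control replicate 2 or SF3a1 siRNA replicate 3 and 21 with the replicate block. Translation factors had 3 raised members without SF3a1 siRNA replicate 3 and 12 with the replicate block. Translation factors had 5 lowered members with only the 6 libraries and 6 without control replicate 2, control replicate 3 or SF3a1 siRNA replicate 3 or with no filter. Ribosome biogenesis had 5 raised members without control replicate 1 or SF3a1 siRNA replicate 3 or with no filter. Ribosome biogenesis had 4 lowered members with no filter or with only the 6 libraries and 13 without control replicate 1 or with the replicate block.

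Beyond the lists, the genes with the largest changes were named by rank. The largest fall was in Maf, a transcription factor of macrophages, at 31.7, 15.4 and 9.20 CPM with control siRNA and 0.484, 0.907 and 0.578 CPM with SF3a1 siRNA (log2 fold change -4.88, SE 0.55, edgeR adjusted p = 7e-05). Lipg, endothelial lipase, followed at 25.7, 22.0 and 18.9 CPM with control siRNA and 1.03, 0.907 and 0.914 CPM with SF3a1 siRNA (log2 fold change -4.53, SE 0.37, edgeR adjusted p = 1.1e-05). Tnfsf10, the death ligand TRAIL, fell from 6.39, 12.6 and 13.7 CPM to 0.575, 0.605 and 1.44 CPM (log2 fold change -3.64, SE 0.46, edgeR adjusted p = 0.000256). Sh2d6, Gm12250, Trim30c and 9930111J21Rik2 fell, with log2 fold changes of -4.30, -3.73, -3.66 and -4.17. Trim30c and 9930111J21Rik2 resemble other genes of their families, so their values are uncertain. In each gene named here for its rank the groups did not overlap, as the rule required. The largest rise was in Inka2, at 0.105, 0.318 and 0.561 CPM with control siRNA and 9.11, 19.3 and 19.2 CPM with SF3a1 siRNA (log2 fold change 5.77, SE 0.54, edgeR adjusted p = 2.63e-05). Ak1, adenylate kinase, rose from 1.42, 1.35 and 2.69 CPM to 58.0, 94.8 and 107 CPM (log2 fold change 5.58, SE 0.35, edgeR adjusted p = 2.85e-06). Epha2, an ephrin receptor, was at 0.526, 1.67 and 1.51 CPM with control siRNA and 40.1, 32.3 and 28.6 CPM with SF3a1 siRNA (log2 fold change 4.90, SE 0.39, edgeR adjusted p = 1.08e-05), and Fam198b at 0.632, 0.954 and 0.505 CPM with control siRNA and 20.8, 13.7 and 16.4 CPM with SF3a1 siRNA (log2 fold change 4.65, SE 0.31, edgeR adjusted p = 4.53e-06). Slc9b2, Sec16b, Dusp9 and Wnt1 rose by 4.56, 4.02, 3.94 and 3.88, and Phlda3 and Eda2r of the p53 list were among the 10. Inka2 had a log2 fold change of 5.10 without control replicate 1 and 6.52 without control replicate 3. Maf had a log2 fold change of -4.25 without control replicate 1. Sh2d6 had a log2 fold change of -5.41 without SF3a1 siRNA replicate 3. Slc9b2 had a log2 fold change of 5.41 without control replicate 1 and 3.42 without SF3a1 siRNA replicate 1.

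The same knockdown without LPS, measured in 6 other libraries that share none with this comparison, called 5069 genes (33.8%), 2058 higher (13.7%) and 3011 lower (20.1%). Of the genes lowered with LPS, 1974 were also lowered without it, which is 64.4% of the former and 65.6% of the latter list, and 1434 were raised in both (52.1% and 69.7%). The difference between the 2 effects was tested directly as an interaction in the same fit. It was called for 520 genes (3.47%), 230 with a higher effect with LPS (1.54%) and 290 with a lower one (1.94%), and for 1756 with the replicate number as a block. Of these 520, 245 were lowered with LPS (138 of them not called without it and 67 raised without it), 169 were raised with LPS (48 of them lowered without it) and 106 were not called with LPS.

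The lists differed in this respect, which is given as counts and was not tested over lists. Of the 56 antiviral genes, 23 had a lower effect with LPS, against 1.94% of all genes, as had 9 of 19 chemokines, 8 of 24 cytokines and 8 of 19 MHC class I genes. Of the 15 interferon-inducible GTPases tested, 4 had a lower effect with LPS, and 2 were called lower without it. Without LPS, SF3a1 siRNA raised 10 of the 19 chemokines and lowered 1, and raised 7 of the 24 cytokines and lowered 4. Over all genes these shares were 13.7% raised and 20.1% lowered. With the replicate block, 42 antiviral, 10 chemokine, 12 cytokine, 13 MHC class I and 7 GTPase genes were called for a difference in either direction. Il6, with 0 counts without LPS, is a case in which this test can say little, and Il27 and Il1b, with means below 0.5 CPM in both groups without LPS, also rest on few reads, as does Cxcl11, at means near 1 CPM. Nfkbiz had the smallest adjusted p: SF3a1 siRNA raised it without LPS (log2 fold change 1.25, SE 0.18, edgeR adjusted p = 0.000306) and lowered it with LPS (log2 difference -3.29, SE 0.25, edgeR adjusted p = 0.000127). Tap1 (log2 difference -2.72, SE 0.25, edgeR adjusted p = 0.000397), Daxx, a nuclear corepressor (log2 difference -1.82, SE 0.17, edgeR adjusted p = 0.000423), and Fcgr1 (log2 difference -2.83, SE 0.31, edgeR adjusted p = 0.00149) were also among the 5 genes with the smallest adjusted p that met the naming rule for this test, as was Ptgs2. Ptgs2 was raised by SF3a1 siRNA without LPS (log2 fold change 3.18, SE 0.20, edgeR adjusted p = 4.55e-06) and, with LPS, was high in both siRNA groups (log2 difference -2.90, SE 0.26, edgeR adjusted p = 0.000397). Ccl5 had a log2 difference of -3.51 (edgeR adjusted p = 0.00632).

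Mitosis genes, in contrast, were lowered in both conditions, 51 of 52 without LPS with a median of -1.77, and none was called for a difference. Targets of p53 were raised in both, 28 of 47 without LPS with a median of 1.27, and 7 had a lower effect with LPS, Cdkn1a among them (log2 difference -1.11, SE 0.19, edgeR adjusted p = 0.0134), and 3 a higher one, against 1.94% and 1.54% of all genes. DNA replication genes were lowered in 51 of 52 cases without LPS, with a median of -1.38. With LPS 14 had a higher effect, against 1.54% of all genes. Among them was Tk1 (log2 difference 1.37, SE 0.38, edgeR adjusted p = 0.0998). Its mean with control siRNA was 143 CPM without LPS and 22.3 CPM with it, and with SF3a1 siRNA 14.0 and 5.63 CPM. Control means of Cdc45 (71.8 and 29.6 CPM) and Mcm3 (402 and 177 CPM) were also lower with LPS, and that of Mcm10 less so (106 and 96.7 CPM). None of these other genes was called for a difference. The part of the control levels in these differences was not tested. For ribosomal proteins, oxidative phosphorylation and each of the spliceosome lists other than nonsense-mediated decay, no member was called for a difference, and Dhx34 was the 1 member of the decay list that was (log2 difference 0.99, SE 0.27, edgeR adjusted p = 0.0903). With the replicate block, 2 mitosis genes, 15 p53 targets, 38 DNA replication genes, 0 cytosolic and 6 mitochondrial ribosomal proteins, 0 oxidative phosphorylation genes and 1, 2, 1, 2 and 2 members of the U2, other spliceosome, SR, hnRNP and decay lists were called.

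**Figure D4:**
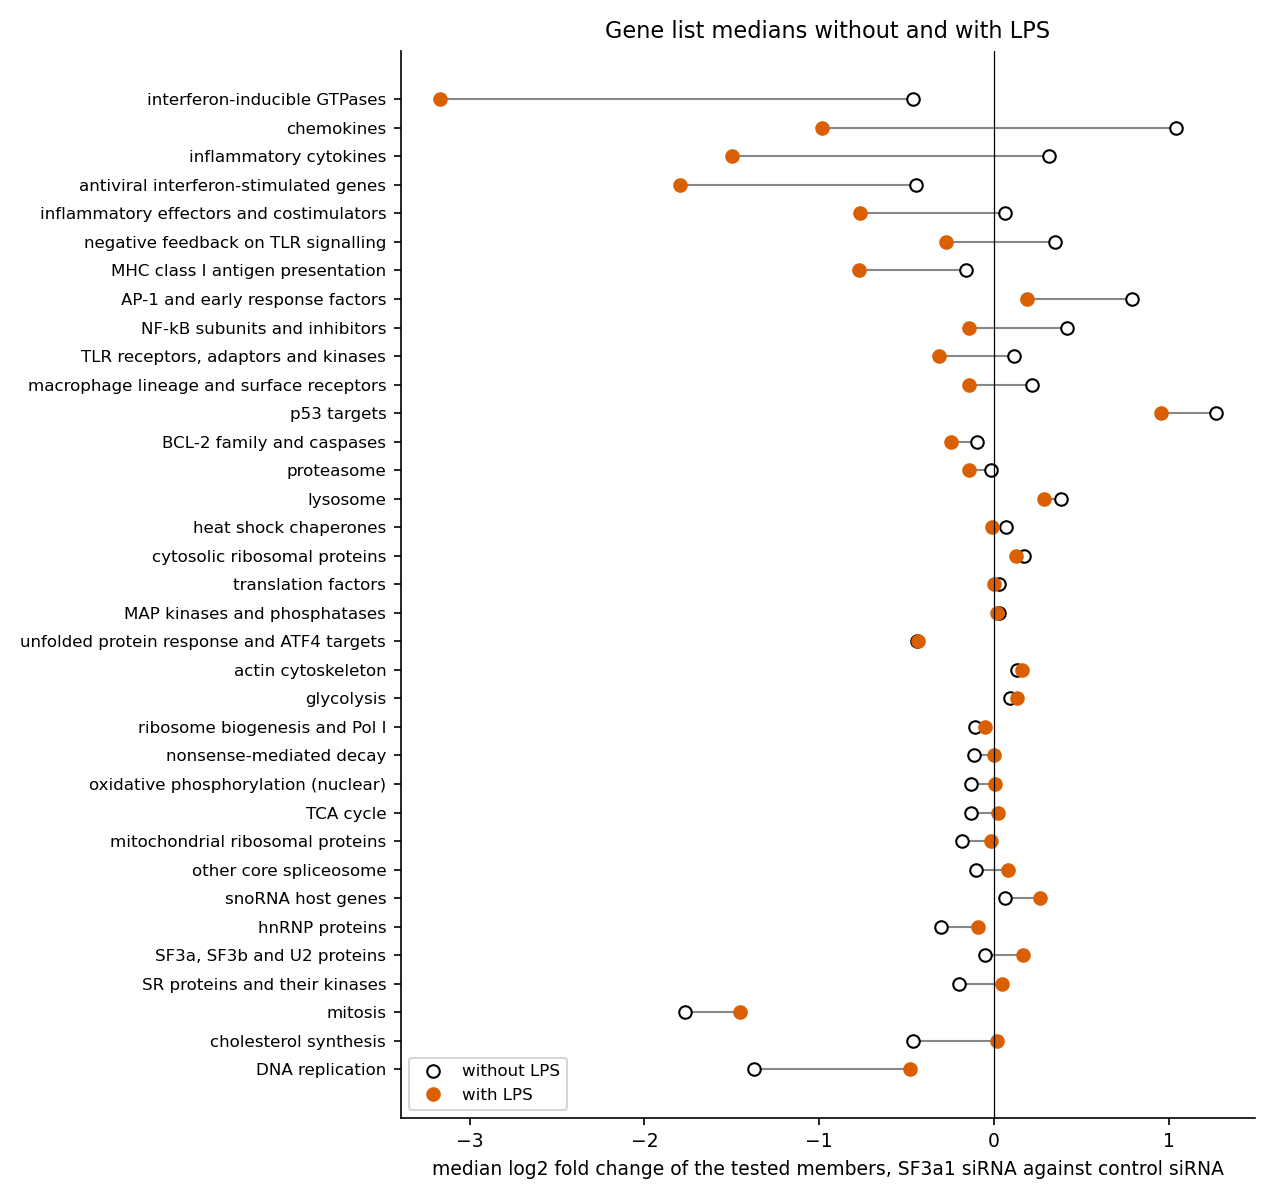
Median log2 fold change of the tested members of 35 gene lists (SF3a1 siRNA against control siRNA) without LPS (open points) and with LPS (filled points), joined by a line; lists are ordered by the difference. Interferon-inducible GTPases move from -0.46 to -3.17, chemokines from 1.04 to -0.99 and DNA replication from -1.38 to -0.48, while mitosis and p53 targets stay on their own side of 0.

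Calls were also counted by the largest number of introns in any annotated transcript of a protein-coding gene. Intronless genes, which need no splicing, were called too: of 288, 20.1% were raised and 16.7% lowered. Over genes of every biotype without introns (3106, at a median of 3.20 CPM) these shares were 4.6% and 11.8%. Of 2697 genes with 1 to 4 introns, 26.4% were raised and 15.4% lowered, and of 3459 with 5 to 9, 26.8% and 19.5%. With 10 or more introns (4817 genes) the order turned, 18.8% raised and 28.7% lowered. The medians of the log2 fold change were -0.052, 0.16, 0.11 and -0.081 in this order, small beside the spread within each class, whose quartiles ran from -0.59 to 0.37 for genes with 10 or more introns. The classes also differ in level, with median CPM over the libraries of 5.20, 20.4, 35.1 and 44.1, and the part of level in these shares was not tested.

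**Figure D5:**
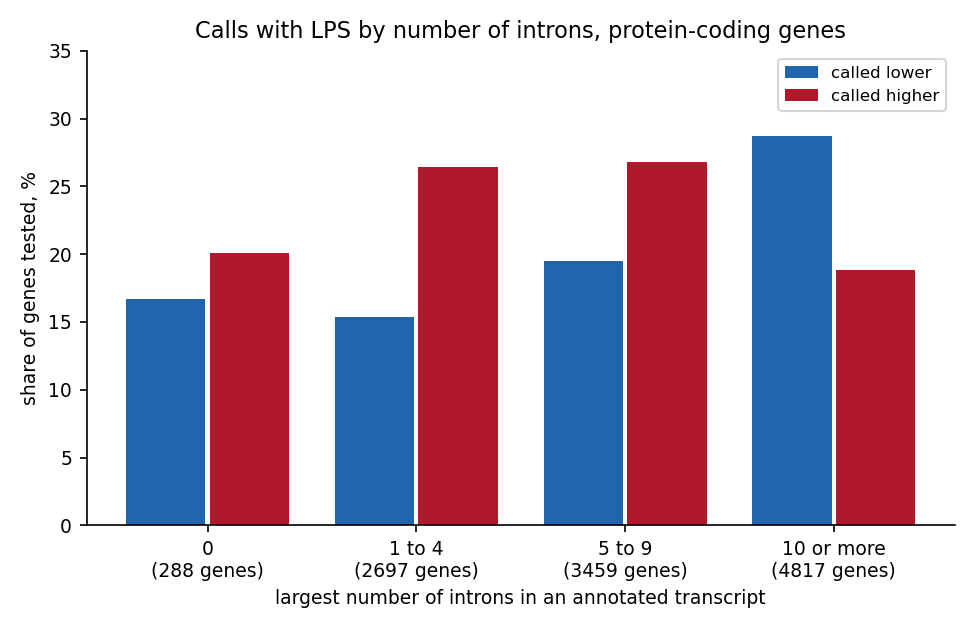
Share of tested protein-coding genes called lower (blue) and higher (red) with SF3a1 siRNA and LPS, in percent, by the largest number of introns in an annotated transcript. Raised genes outnumber lowered ones up to 9 introns, and lowered genes outnumber raised ones at 10 or more (28.7% against 18.8%).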

How the data were processed

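RNAseq libraries were made from polyA RNA of RAW264.7 cells and read as single ends on an Ion Proton. The authors dropped reads shorter than 30 nt, aligned the rest to the mm10 genome by GSNAP and counted uniquely mapping reads per Ensembl gene with HTSeq in its intersection-nonempty mode. The deposited values are raw counts per gene, and a second deposited count table gives reads outside genes. Replicate 1 of each group joins 2 runs. Whether counting used strand is not given in the sources used here, so overlapping genes may share reads, and near-identical copies lose reads that map to both. Exon bin counts were not used here.

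Counts of all 12 libraries (38215 genes, of which 9577 had 0 counts throughout) were fitted with edgeR 4.0.16 (R 4.3.3): low genes were removed with filterByExpr, libraries were scaled by TMM, and the quasi-likelihood test was run with 1 mean per group. Benjamini-Hochberg adjustment covered all 14983 genes tested, and a gene with an adjusted p up to 0.1 was called. The difference of effects was the interaction contrast of the same fit. Gene positions and introns come from GENCODE M21 on mm10, and promoters from RefSeq on GRCm38.p6. On simulated counts of 38215 genes with 200 changed, this comparison recovered 55% of 2-fold and 87% of 4-fold changes, with 7.79% false calls. The simulated libraries were independent of each other, without pairs by number, and had far fewer changed genes than the 5818 called here. These rates therefore need not hold for the data. Chi-square values per degree of freedom between replicates with LPS were far above 1, so none of these was a copy of another in its group.

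Libraries with the same replicate number deviated together from their group means in all 18 pairs across groups (correlations 0.143 to 0.6), so the numbers, which come from the labels, were taken to pair the samples. Replicate 1 stood most apart: in the groups with LPS, control replicate 3 correlated with SF3a1 siRNA replicate 2 at 0.317 and control replicate 2 with SF3a1 siRNA replicate 3 at 0.236, against 0.223 and 0.191 for the pairs of replicate 2 and of replicate 3. The main fit has no block, and the block is an alternative. Other alternatives were RLE scaling, library totals alone, DESeq2 1.42.0, limma-voom (limma 3.58.1), other filters, only the 6 libraries with LPS, each of these 6 left out in turn, and an adjusted p of 0.05.

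The members and the 35 gene lists were chosen with earlier results of these data known, and 11 pairs of lists share a gene. Genes named were Sf3a1 and 11 genes of LPS signalling, in each list the 3 called members with the largest change (mean of at least 1 CPM, no overlap between groups) and the member with the highest CPM, the 10 largest rises and falls overall (at least 5 CPM), and 5 genes with the smallest adjusted p for the difference. Other genes were named after their values were seen. A few genes that fall under this rule, or belong to the lists, are not reported here by name and remain in the counts and medians of their lists.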

Additional observations from a re-analysis of the deposited data

Results flagged for a closer look

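The effect of SF3a1 siRNA with LPS differed from its effect without LPS, by the interaction test of edgeR at an adjusted p of 0.1 or less over 14983 genes, for the genes given here, each with the log2 fold change with LPS minus that without. Among cytokines, chemokines and their products it was lower with LPS for Cxcl11 (-3.91), Il27 (-3.70), Cxcl2 (-3.62), Ccl5 (-3.51), Il1b (-3.31), Ccl2 (-3.15), Cxcl10 (-2.57) and Csf1 (-2.41). Genes of the interferon response and antigen presentation with a lower effect were Tap1 (-2.72), Isg20 (-2.40), Nlrc5 (-2.31), Irf7 (-2.30), Ifit2 (-2.14), Pml (-1.93), Trim30a (-1.84), Ddx58 (-1.47), Stat2 (-1.40) and Psmb9 (-1.35). The regulators Nfkbiz (-3.29), Tlr3 (-2.79), Egr1 (-2.47), Daxx (-1.82), Socs3 (-1.74) and Nfkbia (-1.21) and the effectors and receptors Lipg (-4.56), Cd80 (-3.01), Ptgs2 (-2.90), Fcgr1 (-2.83), Acod1 (-2.59) and Lck (-1.65) stood on the same side, as did the p53 targets Fas (-3.52), Gadd45a (-2.28), Cdkn1a (-1.11) and Mdm2 (-0.97). A lower effect with LPS is not always a fall with LPS. With LPS, Ccl2 (-0.32), Cxcl2 (-0.99), Nfkbia (-0.14), Gadd45a (-0.44) and Ptgs2 (0.28) were not called. Cd80 (0.95), Cdkn1a (1.44) and Mdm2 (2.03) were raised with LPS.

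A higher effect with LPS was called for the replication genes Pcna (0.95), Mcm4 (1.11), Gins3 (1.11), Tk1 (1.37) and E2f2 (1.79), for the p53 target Sesn1 (2.14), for Bmf (2.22) of the BCL-2 family, for the lysosomal regulator Tfeb (1.95) and for Dhx34 (0.99) of nonsense-mediated decay. Of these, Tk1 was lowered in both conditions. No outlier test was made on groups of 3 libraries. Values without each library are not given for these differences, and for the effect with LPS they are given for some genes only.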

How the results depend on the processing

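No gene called with LPS changed sign under any of the 15 alternatives. Of the 5818 called genes, 5706 were also called with RLE scaling, 5634 with library totals alone, 5762 with DESeq2, 5567 with limma-voom, 5615 with at least 1 CPM in 3 libraries, 4794 with no filter on low counts and 4435 with only the 6 libraries with LPS. Leaving out 1 library gave between 2134 and 3009 genes called higher and between 2610 and 2984 called lower. The number of genes called for the difference between the effects with and without LPS moved from 520 to 966 with DESeq2, 930 with no filter, and 306 at an adjusted p of 0.05, and ran between 371 and 711 without 1 library. The TLR list had 9 lowered members with only the 6 libraries and 21 with the replicate block. At an adjusted p of 0.05, 13 of 70 counts of list members moved by over 1.5 times. The causes of these shifts were not tested. Some genes that were not called changed sign: Sf3a3 was at 0.00105 with RLE scaling, 0.00159 with DESeq2 and 0.0425 with only the 6 libraries, and without 1 library the ranges were Actb (-0.070 to 0.17), Bub3 (-0.10 to 0.15), Ccl9 (-0.26 to 0.13), Foxm1 (-0.28 to 0.28), H2-M3 (-0.13 to 0.17), Hspa5 (-0.11 to 0.36), Il10 (-0.95 to 0.35), Lyz2 (-0.0048 to 0.36), Nfkbia (-0.34 to 0.032), Oas2 (-0.17 to 0.33), Pdia3 (-0.25 to 0.021), Sf3a3 (-0.12 to 0.055) and Trim25 (-0.042 to 0.36). Of these, Il10 had the widest range, and its sign turned without control replicate 1.

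With the replicate number as a block, all 5818 calls were made again among 7625, and 1756 genes were called for the difference. Named genes that gained a call with the block, and lists whose count of raised or lowered members with LPS moved by over 1.5 times, are given with their values in the results, as are counts for the difference with the block for the lists described there. The block ended no call with LPS among the genes named there.

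Depth limits low genes: some genes named by size had under 1 CPM in 1 group, where a fold change rests on few reads. A single cell line, 1 LPS dose and 1 time point were measured, and gene counts do not show which transcript forms changed.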
